A study of Homo sapiens with 28 samples.

Results

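Solute carriers are the membrane proteins that move amino acids, sugars, ions, metals, nucleotides and vitamins across cell and organelle membranes, and their genes carry symbols that begin with SLC. The members described here are the 195 genes with such a symbol whose level in the nuclear fraction of vehicle-treated cells, averaged over 3 libraries, was 100 or more. They were taken from 341 SLC genes in a table of 16482 genes. They were thus chosen by measured nuclear DMSO levels, which are given as a description and not as a result. Just outside it lay SLC26A3 at 98.4 and SLC4A10 at 99.2, and just inside it lay SLC16A10 at 115, SLC9C1 at 145 and SLC16A3 at 148. By family, 38 members are SLC25 mitochondrial carriers, 153 are carriers of other families, and 4 hold an SLC symbol but are not carriers. The substrate classes used below follow the family number, so a single member may carry something else or lie in another membrane. These 4 are the scaffold proteins SLC9A3R1 and SLC9A3R2, the transcription factor SLC2A4RG and the nuclear adaptor SLC4A1AP.

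Most solute carriers are made by ribosomes that sit on the endoplasmic reticulum, where the growing protein is threaded into the membrane before it travels to the plasma membrane, Golgi or lysosome. The SLC25 carriers are different: free ribosomes in the cytosol make them, and translocases then carry the finished protein to the inner mitochondrial membrane. Digitonin opens the plasma membrane and lets the cytosol out, while the endoplasmic reticulum tends to stay with the pelleted nuclei.

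The libraries came from MDA-MB-453, an established line of human breast carcinoma cells, which had been given either the vehicle DMSO or a single compound for 3 h: JQ1, IBET151, or their forms JQ1-VHL and IBET151-VHL. JQ1 and IBET151 are inhibitors of BET bromodomain proteins, which read acetylated chromatin, and the VHL forms, as their names read, join the inhibitor to a ligand of the VHL ubiquitin ligase. All cultures received 0.1 mM 4-thiouridine for the last 60 min, 10% Drosophila S2 cells as a spike, digitonin, and alkylation that makes 4-thiouridine read as C, so that reads with T>C conversions (T>C reads) stand for RNA made in the labelling time. Each treatment gave a digitonin supernatant, labelled cytoplasmic, and pelleted nuclei, labelled nuclear, with 3 libraries per group except 2 for IBET151, 28 in all. Doses are not in the sources used here, so the compounds are compared at the single condition of each. Nothing says that replicates came from separate cultures, so p-values measure only the spread between these libraries, which may be technical.

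Libraries held 17851589 to 68475299 reads of mRNA 3′ ends, and levels are the authors' values scaled to ERCC RNA that was added per mass of RNA. A nuclear and a cytoplasmic level are therefore each relative to the RNA mass of that fraction and not to a cell, and in bulk RNA fewer cells of a type and less RNA per cell cannot be told apart. Since only 3′ ends were read, levels are not divided by gene length. Most of the markers looked at matched the label: in the cytoplasm of DMSO cells ERBB2 averaged 4410 and GATA3 45838. The basal KRT14 was at 0 there, KRT5 at 0.799, VIM at 0.281 and the leukocyte PTPRC at 3.64. Others did not: the stromal collagen COL1A1 averaged 1620, the basal TP63 15.5 and the immune marker CD68 31.3. In the DMSO nuclear libraries TP63 averaged 125 and CD68 239. Nuclear libraries of replicate 1 of DMSO, JQ1, JQ1-VHL and IBET151-VHL, which share the first run of library numbers in the titles, stood apart from the other nuclear libraries. The main counts and medians over members between fractions and within the nucleus are therefore also given without that run. Those of single substrate classes and of other gene lists use all libraries. So do the T>C levels and the VHL effect compared between fractions, and values of single genes unless said.

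Carrier transcripts were higher in the pelleted nuclei than in the digitonin supernatant. Among the 195 members, 157 were higher and 8 lower in the pellet over the 22 drug-treated libraries (limma, Benjamini-Hochberg adjusted p under 0.05 over all genes). The DMSO libraries were left out because their nuclear values chose the members. The members' median log2 difference was 2.08, or 4.23-fold. Of all 14243 genes tested, 60.7% were higher and 9.83% lower with a median of 1.03, and of the 10912 genes at or above the same level of 100, 55.0% were higher and 11.4% lower with a median of 0.79. The 11 nuclear and 11 cytoplasmic libraries did not overlap for 109 members, 55.9%, against 24.1% of the genes at that level, and 100 members, 51.3%, were over 4-fold higher in the pellet, against 18.6%. Under scaling by median ratios in place of the ERCC scale, all genes tested had a median of 0.21 in place of 1.03 and the members 1.25 in place of 2.08, with 143 members higher and 38 lower. Without the first run of library numbers, 170 were higher and 6 lower with a median of 2.52, beside 1.21 for genes at that level. Of those 10912 genes, 8383 were then higher and 950 lower, so most genes at that level were higher too. Then 159 members, 81.5%, did not overlap between fractions, against 61.7%, and 121, 62.1%, were over 4-fold higher, against 26.4%.

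The carriers of other families and the SLC25 carriers lay at different places along this scale. Of the 153 carriers outside SLC25, 142 were higher and 4 lower in the pellet, with a median log2 difference of 2.42 (quartiles 1.63 and 3.07). Of the 38 SLC25 carriers, 15 were higher, 4 were lower and 19 did not pass, with a median of 0.31 (quartiles -0.37 and 1.07), under the median of 0.79 for all genes at that level. Of the 4 genes that are not carriers, 0 passed in either direction, and their median was -0.36. Without the first run of library numbers the SLC25 carriers had 24 higher and 2 lower with a median of 0.73, and the carriers outside SLC25 145 higher and 4 lower with one of 2.84. Of the 10912 genes at that level, 8383 were then higher and 950 lower, with a median of 1.21. The difference between these classes was not put to a test of its own.

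**Figure D1:**
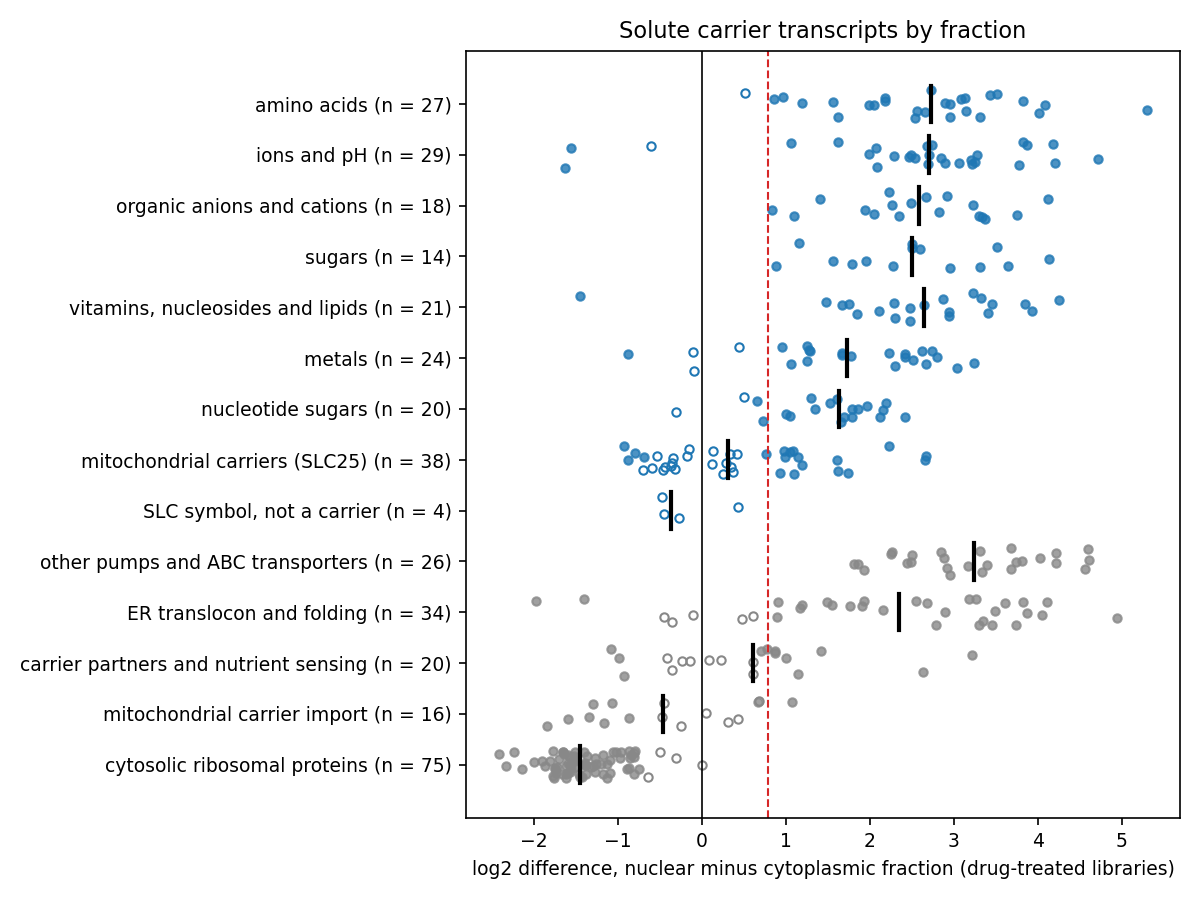
Log2 nuclear minus cytoplasmic level over the drug-treated libraries, with 1 point per gene, by class of solute carrier (blue) and for the comparison lists (grey). Filled points passed an adjusted p under 0.05, bars are class medians, and the red dashed line is the median of all genes at the same level (0.79); the carrier classes outside SLC25 have medians of 1.64 to 2.73, and SLC25 one of 0.31.

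Among amino acid carriers, 26 of 27 were higher in the pellet and 0 lower, with a median log2 difference of 2.73. SLC3A2 is the CD98 heavy chain, which pairs with several light chains of the SLC7 family and brings them to the cell surface. Its nuclear level was 6565, 13279 and 27359 with JQ1, 5553, 11065 and 14708 with JQ1-VHL, 14174 and 22237 with IBET151 and 5652, 10465 and 16036 with IBET151-VHL. Its cytoplasmic level was 1239, 572 and 758, 668, 467 and 839, 546 and 1097 and 934, 370.0 and 826 in the same order. Every nuclear library lay above every cytoplasmic one, and the log2 difference was 4.09 ± 0.31 (SE; limma adjusted p = 3.08e-28).

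The light chains that pair with SLC3A2 were also higher in the pellet. SLC7A7, which exchanges cationic for neutral amino acids, had the largest difference of any member, 5.30 ± 0.31 (SE; limma adjusted p = 5.61e-40). It ranged from 122 to 522 with a median of 291 in the 11 nuclear and from 1.81 to 10.0 with a median of 6.81 in the 11 cytoplasmic libraries, so its cytoplasmic level rests on few reads. SLC7A11, the cystine and glutamate exchanger, had a log2 difference of 2.90 and SLC7A5, the large neutral amino acid exchanger, one of 2.54. The glutamine carrier SLC1A5 ranged over 17649 to 58226 with a median of 39798 in the nuclear and 1882 to 4963 with a median of 3388 in the cytoplasmic libraries, a log2 difference of 3.51. The sodium-coupled neutral amino acid carriers SLC38A2 and SLC38A1 differed by 3.82 and 1.57. SLC66A3, an orphan of the lysosomal PQ-loop family, was the amino acid class member that did not pass (0.52, limma adjusted p = 0.0975).

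Ion and pH carriers had 26 higher and 2 lower of 29, with a median of 2.71. SLC26A6, an anion exchanger, had a log2 difference of 4.72 ± 0.29 (SE; limma adjusted p = 7.09e-37), and ranged from 2540.3 to 9427 with a median of 6264 in the nuclear and from 169 to 310.1 with a median of 207 in the cytoplasmic libraries. SLC12A9, an orphan of the cation and chloride cotransporter family, and SLC12A7, a potassium chloride cotransporter, differed by 4.21 and 4.18. SLC12A2, the sodium potassium chloride cotransporter of most cell types, lay at 12384 to 40119 with a median of 22398 in the nuclear and 792 to 3486 with a median of 1760.3 in the cytoplasmic libraries, a difference of 3.87. All 4 genes had no overlap between fractions. The phosphate carrier SLC20A1 differed by 2.84.

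The members lowest on the scale were 2 kidney-type salt cotransporters of the same family. SLC12A3, the thiazide-sensitive sodium chloride cotransporter, ranged from 64.1 to 751 with a median of 375 in the nuclear and from 783 to 1001 with a median of 872 in the cytoplasmic libraries, without overlap, and was lower in the pellet by a log2 difference of -1.63 ± 0.30 (SE; limma adjusted p = 5.93e-07). SLC12A1, its loop-diuretic-sensitive relative, differed by -1.56, with nuclear levels of 48.8 to 302 with a median of 102 and cytoplasmic levels of 233 to 400.4 with a median of 293. The most abundant nuclear libraries of SLC12A1 thus reached into its cytoplasmic range.

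**Figure D2:**
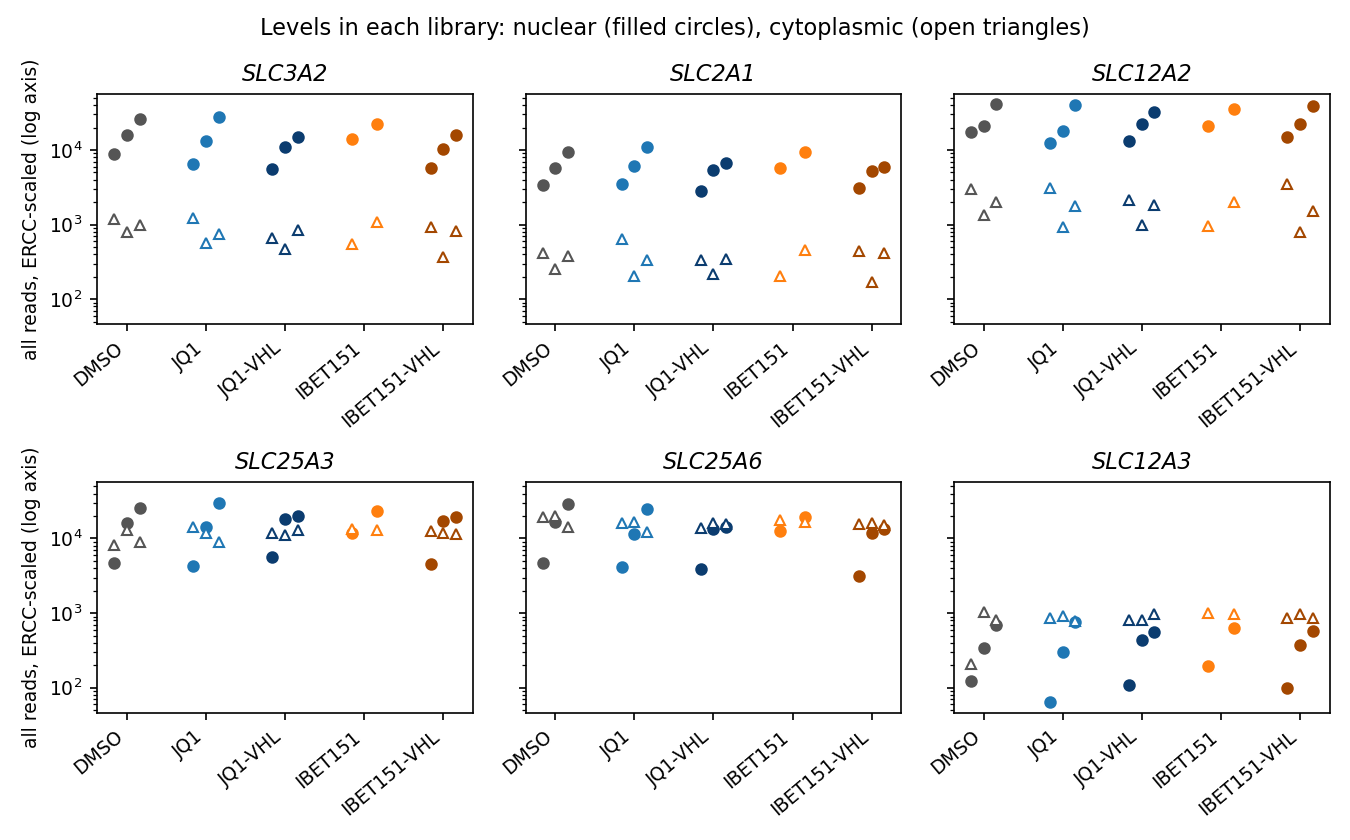
Level (ERCC-scaled units, log axis) of SLC3A2, SLC2A1, SLC12A2, SLC25A3, SLC25A6 and SLC12A3 in each of the 28 libraries, by treatment, with nuclear libraries as filled circles and cytoplasmic ones as open triangles. The fractions are far apart for the first 3 genes, overlap for both SLC25 genes, and lie in the opposite order for SLC12A3 in the drug-treated libraries.

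Sugar carriers were higher in the pellet in 14 of 14 cases, with a median of 2.50. SLC2A1, the basal glucose carrier, ranged from 2787 to 10816 with a median of 5762 in the nuclear and from 168 to 649 with a median of 336 in the cytoplasmic libraries, with no overlap and a log2 difference of 4.13 ± 0.30 (SE; limma adjusted p = 6.32e-30). The class of organic anions and cations had 18 of 18 higher and a median of 2.58. In it SLC16A1, which carries lactate and other monocarboxylates, also differed by 4.13, from 72.6 to 322 with a median of 181 in the cytoplasm to 1430.2 to 5873 with a median of 2851 in the pellet.

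Carriers of vitamins, nucleosides and lipids had 20 higher and 1 lower of 21, with a median of 2.65. SLC27A3, of the fatty acid transport family, differed by 4.25 and lay at 6094 to 16951 with a median of 14281 in the pellet. Its relative SLC27A5, an acyl-CoA synthetase of bile acid and fatty acid metabolism, went the other way, with a log2 difference of -1.44 ± 0.29 (SE; limma adjusted p = 3.97e-06). SLC27A5 ranged from 139.7 to 815 with a median of 396 in the nuclear and from 919.5 to 1194 with a median of 1051 in the cytoplasmic libraries, and did not overlap. Members of the same family thus lay at opposite ends of the scale.

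Metal carriers and carriers of nucleotide sugars had lower medians, 1.73 and 1.64. Of 24 metal carriers, 20 were higher and 1 lower. The zinc importer SLC39A6, known in breast tissue as LIV-1, differed by 2.80, the zinc exporter SLC30A1 by 2.63 and SLC39A7, which releases zinc from the endoplasmic reticulum, by 2.42. The zinc importer SLC39A4 was lower in the pellet (-0.88, limma adjusted p = 0.0110). The iron exporter SLC40A1 (-0.10), the heme carrier SLC48A1 (-0.09) and SLC30A9 (0.44) did not pass. Of 20 members of the nucleotide sugar class, 18 were higher and 0 lower. SLC35F2 differed by 1.66, and SLC35B1, which brings ATP into the endoplasmic reticulum, by 1.01 (limma adjusted p = 0.00289). For SLC35B1 the difference was 0.17 and did not pass under median-ratio scaling. SLC35A4 (-0.31) and SLC35B3 (0.50) were the 2 members of this class that did not pass.

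The abundant mitochondrial carriers SLC25A1, SLC25A3, SLC25A5 and SLC25A6 did not pass the test in either direction with all libraries. SLC25A3, the phosphate carrier, ranged from 4296 to 30212 with a median of 16985 in the nuclear and from 8910.4 to 14225 with a median of 11778 in the cytoplasmic libraries. Its log2 difference was 0.12, with a 95% interval of -0.53 to 0.77 (limma adjusted p = 0.755). The citrate carrier SLC25A1 differed by -0.45 (limma adjusted p = 0.204), and the ADP/ATP carriers SLC25A5 and SLC25A6 by -0.70 (0.0601) and -0.59 (0.101). Their fractions overlapped in all 4 cases. Without the first run of library numbers SLC25A3 differed by 0.67 and passed as higher in the pellet. Under median-ratio scaling SLC25A3 turned to -0.72, and SLC25A5 and SLC25A6, at -1.54 and -1.43, passed as lower in the pellet.

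The SLC25 family did not lie at a single place. At the pellet end were SLC25A29, a carrier of basic amino acids, at 2.67, SLC25A21, which carries oxodicarboxylates, at 2.66, and the orphan SLC25A35 at 2.23. SLC25A29 ranged from 4638 to 13586 with a median of 12048 in the nuclear and from 1206 to 2202 with a median of 1621 in the cytoplasmic libraries, without overlap. The 4 that were lower in the pellet were SLC25A43 (-0.93), the pyrimidine nucleotide carrier SLC25A33 (-0.88), SLC25A46 of the outer mitochondrial membrane (-0.79) and the ATP-magnesium carrier SLC25A23 (-0.68). SLC25A17, which works in peroxisomes, was higher by 0.93. Outside the SLC25 family, SLC8B1, the sodium calcium exchanger of mitochondria, was higher in the pellet by 3.25 with no overlap. SLC25A17 and SLC8B1 were picked for their places in the cell after their values were seen.

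Lists of other genes, chosen with earlier results of these data known, were placed on the same scale. Of all genes tested, 60.7% were higher and 9.83% lower in the pellet. Whether the place where a protein is made sets the place on this scale was not tested. Of 26 pumps and ABC transporters, which are also membrane proteins, 26 were higher in the pellet, with a median of 3.24. Examples are ATP13A1 at 4.56 and ABCA12 at 4.61. Of 34 genes of the translocon and of folding in the endoplasmic reticulum, 27 were higher and 2 lower, with a median of 2.35. The chaperones HSPA5 and HSP90B1 differed by 4.94 and 4.11, and STT3A, of the oligosaccharyl transferase, by 4.05.

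At the other end, of 75 cytosolic ribosomal proteins 0 were higher and 71 lower in the pellet, with a median of -1.45. RPS12 differed by -2.41 and RPL35 by -2.23. Of 16 genes of mitochondrial import and uncoupling, 2 were higher and 7 lower, with a median of -0.46, among them the outer membrane translocase subunits TOMM5 (-1.84) and TOMM7 (-1.59) and the carrier-family protein UCP2 (-1.29). Of 20 partners of carriers and nutrient sensors, 9 were higher and 3 lower, with a median of 0.61. BSG, the chaperone of SLC16A1, was higher by 3.21, and the volume-regulated channel subunits LRRC8A and LRRC8D by 2.63 and 1.42.

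At every replicate number the other carriers lay above the SLC25 carriers and the ribosomal proteins below them, while the level moved with the library. For each replicate number the members' median log2 nuclear minus cytoplasmic level was 0.69 in JQ1, 0.96 in JQ1-VHL and 0.57 in IBET151-VHL for the first replicate. In the other drug-treated libraries it lay between 2.07 and 2.70. The ribosomal proteins moved as well, from -2.84 to -2.57 in those 3 pairs and from -1.39 to -0.15 in the others. In the same 3 pairs the SLC25 median was -1.09 to -0.85 and that of the other carriers 0.82 to 1.26. In the DMSO libraries, whose nuclear values chose the members, the members' medians were 1.43, 2.28 and 2.80, given with no test.

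**Figure D3:**
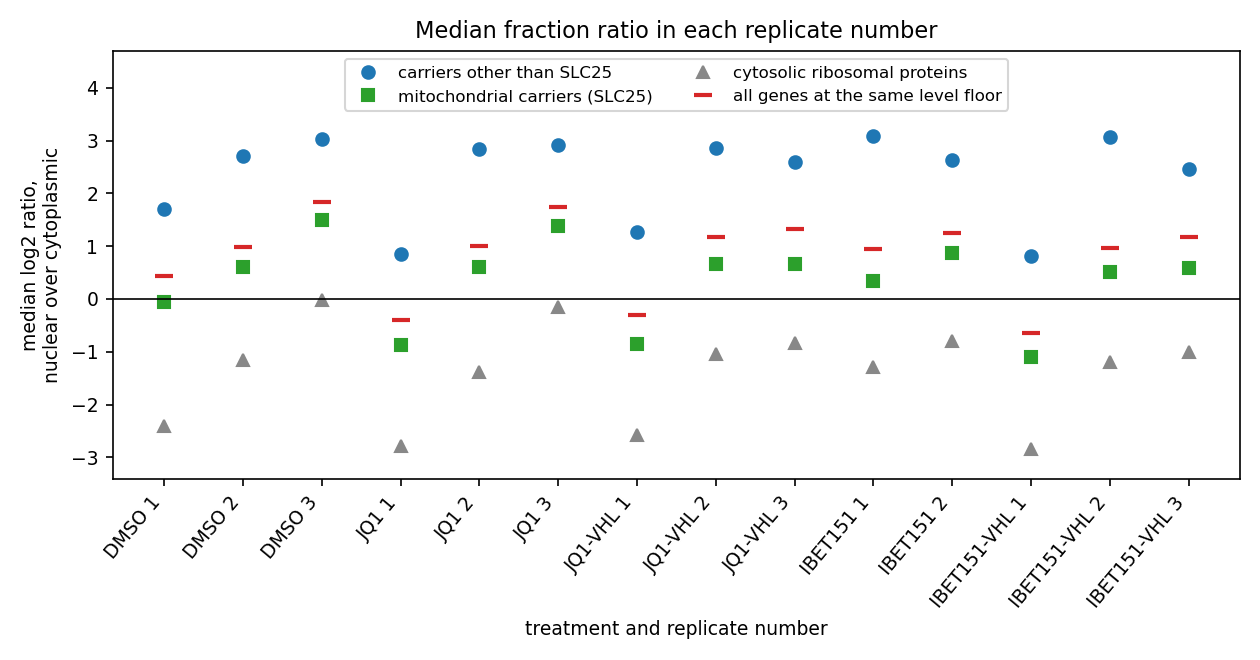
Median log2 nuclear minus cytoplasmic level by treatment and replicate number, for carriers outside SLC25, SLC25 carriers, cytosolic ribosomal proteins and all genes at the same level. The carriers outside SLC25 lie above SLC25 and the ribosomal proteins below it at each replicate number, and replicate 1 of DMSO, JQ1, JQ1-VHL and IBET151-VHL lies lower than the rest.

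In the cytoplasm, where 194 members were tested, the degrader-type VHL compounds lowered 10 and 14 members and the parent inhibitors 5 and 1, and 0 members rose. JQ1-VHL lowered 10 of 194 (12.5% of all genes tested fell), IBET151-VHL 14 (15.4%), JQ1 5 (4.0%) and IBET151 1 (1.62%), by limma at an adjusted p under 0.05. Each share of members is under its background. The members' median log2 changes of -0.15, -0.16, -0.17 and -0.18 (for JQ1 and its VHL form, then IBET151 and its VHL form) stood beside -0.13, -0.17, 0.00 and -0.15 for all genes. The 4 comparisons share the DMSO libraries. At an unadjusted p under 0.05 there were 23, 28, 23 and 30 members in the same order.

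SLC38A2, a sodium-coupled carrier of small neutral amino acids that cells raise when amino acids run short, had the largest fall that passed the test after each VHL compound. Its cytoplasmic level was 1328, 946 and 683 in DMSO, 266, 264 and 328 with JQ1-VHL and 249.5, 225 and 193 with IBET151-VHL. It was 933, 511 and 552 with JQ1 and 559 and 696 with IBET151. All 6 VHL libraries lay below all other cytoplasmic libraries, while the JQ1 and IBET151 libraries reached into the DMSO range. The log2 change was -1.74 ± 0.26 after JQ1-VHL (SE; limma adjusted p = 0.000507) and -2.10 ± 0.26 after IBET151-VHL (SE; limma adjusted p = 6.08e-05), and both calls held under each of 17 alternatives. The VHL compounds also lay below their parents, by -1.17 for JQ1 (limma adjusted p = 0.0181) and -1.49 for IBET151 (limma adjusted p = 0.0046). The difference from JQ1 did not pass without JQ1 replicate 1 or JQ1-VHL replicate 1 or 2 (adjusted p of 0.12, 0.0938 and 0.0707), nor that from IBET151 without IBET151 replicate 2 (0.0838).

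SLC66A1, which exports cationic amino acids from the lysosome, fell after the same compounds. It was at 429.9, 326 and 319 in DMSO, 190.4, 114 and 183 with JQ1-VHL and 137, 116 and 131 with IBET151-VHL. The parents' changes of -0.60 for JQ1 and -0.83 for IBET151 did not pass. No treated library overlapped DMSO, parents included, the highest of the 11 being at 307.5. The log2 changes after JQ1-VHL and IBET151-VHL were -1.16 ± 0.25 and -1.47 ± 0.25 (SE; limma adjusted p = 0.00618 and 0.000725). The orphan SLC35E4 was at 133, 185 and 117 in DMSO, 40.9, 83.3 and 73.5 with JQ1-VHL and 65.2, 51.0 and 41.8 with IBET151-VHL. It stayed at 204, 123 and 154 with JQ1 and 136 and 150.3 with IBET151, inside or just above the DMSO range, so that its VHL libraries lay below those of every other group. Its log2 changes were -1.16 and -1.44 against DMSO (limma adjusted p = 0.0185 and 0.00338) and -1.30 and -1.45 against the parents (0.0217 and 0.0133). Leaving out JQ1-VHL replicate 1 (0.115) or DMSO replicate 2 (0.0808) ended the call of JQ1-VHL against DMSO, as did a fit of only the groups compared (0.058). Leaving out replicate 1 of JQ1 or of JQ1-VHL ended the call against JQ1 (0.144 and 0.131), and leaving out IBET151 replicate 1 or 2 or IBET151-VHL replicate 3 that against IBET151 (0.0615 to 0.144).

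The start regions of SLC38A2, SLC66A1 and SLC35E4 are shown because these genes fell in the cytoplasm after both VHL compounds and are in the table of promoters used (6 of the 8 members that did so are). They are the 250 bases before the RefSeq start on GRCh38.p14, 5′ to 3′ on the gene's strand. Capitals mark GC boxes (GGGCGG) and CCAAT boxes (CCAAT) on either strand. SLC38A2 lies on the minus strand at chr12:46372774-46373023, SLC66A1 on the plus strand at chr1:19312076-19312325 and SLC35E4 on the plus strand at chr22:30635531-30635780.
SLC38A2: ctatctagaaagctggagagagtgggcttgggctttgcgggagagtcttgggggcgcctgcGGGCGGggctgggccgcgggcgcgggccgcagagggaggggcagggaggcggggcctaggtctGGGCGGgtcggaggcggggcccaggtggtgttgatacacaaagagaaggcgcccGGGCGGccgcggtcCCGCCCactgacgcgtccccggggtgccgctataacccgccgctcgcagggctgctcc
SLC66A1: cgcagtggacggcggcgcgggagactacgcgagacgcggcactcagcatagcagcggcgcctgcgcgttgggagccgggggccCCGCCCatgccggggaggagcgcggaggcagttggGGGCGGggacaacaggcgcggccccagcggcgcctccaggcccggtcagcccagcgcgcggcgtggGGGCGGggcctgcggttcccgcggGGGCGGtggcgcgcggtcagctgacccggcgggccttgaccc
SLC35E4: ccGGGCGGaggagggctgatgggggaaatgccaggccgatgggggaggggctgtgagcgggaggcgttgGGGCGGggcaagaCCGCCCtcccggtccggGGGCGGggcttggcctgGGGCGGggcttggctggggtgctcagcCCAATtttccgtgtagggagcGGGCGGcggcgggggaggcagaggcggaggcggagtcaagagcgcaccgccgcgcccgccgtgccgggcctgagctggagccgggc
These windows hold 4, 4 and 6 GC boxes and 0, 0 and 1 CCAAT boxes, and are 73.6%, 80.0% and 76.8% G and C. Of the 160 members matched in the table, 68.1% hold a GC box, against 42.3% of 27305 promoters of the same length. The shares were 36.9% and 33.0% for the CCAAT box, 10.6% and 6.49% for CACGTG, 5.0% and 11.1% for TATAAA, and 3.12% and 1.77% for TGACGTCA, each searched on both strands. The 27305 promoters were taken whatever the level of their gene, while the members were chosen at a level of 100 or more. The 2 shares are thus not like for like. A match is a description of these letters, and GC boxes and base composition go together.

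SLC16A6, a monocarboxylate family member that exports ketone bodies, was the member that fell after all 4 compounds. Its cytoplasmic level was 819, 1037 and 1122 in DMSO, 538, 305 and 479.6 with JQ1, 351, 339 and 498 with JQ1-VHL, 332 and 440.0 with IBET151 and 471, 239 and 399.7 with IBET151-VHL. Every treated library lay below every DMSO library, and the treated groups overlapped one another. The log2 changes were -1.20, -1.33, -1.36 and -1.47 in that order (limma adjusted p = 0.0223, 0.00504, 0.0311 and 0.00168). The call after JQ1 did not pass when JQ1 replicate 2 or 3 or DMSO replicate 2 or 3 was left out (0.0505 to 0.108) or with only the groups compared in the fit (0.0766), and that after IBET151 when either IBET151 library or DMSO replicate 2 or 3 was (0.0525 to 0.34).

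SLC25A38, the mitochondrial glycine carrier needed to start heme synthesis, fell in 3 of the 4 comparisons. It was at 1221, 1704 and 1214 in DMSO, 813, 857 and 794 with JQ1, 614, 754 and 614 with JQ1-VHL and 543, 608 and 565 with IBET151-VHL, with no treated library in the DMSO range. The log2 changes were -0.73 ± 0.17, -1.05 ± 0.17 and -1.25 ± 0.17 (SE; limma adjusted p = 0.0205, 0.00072 and 9.85e-05). The call after JQ1 did not pass without DMSO replicate 2 or any single JQ1 library (0.0509 to 0.0752), nor with only the groups compared in the fit (0.22). With IBET151 it was at 909 and 853, also below DMSO, but did not pass (-0.63, limma adjusted p = 0.108). The mitoferrin SLC25A28, which brings iron into mitochondria for the same pathway, fell by 0.84 and 0.97 on the log2 scale after JQ1-VHL and IBET151-VHL, and the mitoferrin SLC25A37 fell by 0.58 after JQ1-VHL. Of 17 alternatives, 4 ended the first of these calls (limma adjusted p of 0.06 to 0.155), 1 the second, under median-ratio scaling (0.0649), and 7 that of SLC25A37 (0.0598 to 0.164).

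SLC30A1, the zinc exporter of the plasma membrane, separated the VHL compounds from their parents. It was at 370.3, 425 and 396 in DMSO, 892, 513 and 504 with JQ1 and 364 and 673 with IBET151. It was at 204, 207 and 299 with JQ1-VHL and 276, 112 and 173 with IBET151-VHL. The JQ1 libraries lay above and the VHL libraries below the DMSO range. The differences between VHL form and parent were -1.39 for JQ1 and -1.49 for IBET151 (limma adjusted p = 0.0237 and 0.0182). The first did not pass without JQ1 replicate 1 or JQ1-VHL replicate 1 or 2 (0.0866 to 0.156), and the second without IBET151 replicate 2 or IBET151-VHL replicate 2 or 3 (0.0542 to 0.334) or with only the groups compared (0.0934).

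**Figure D4:**
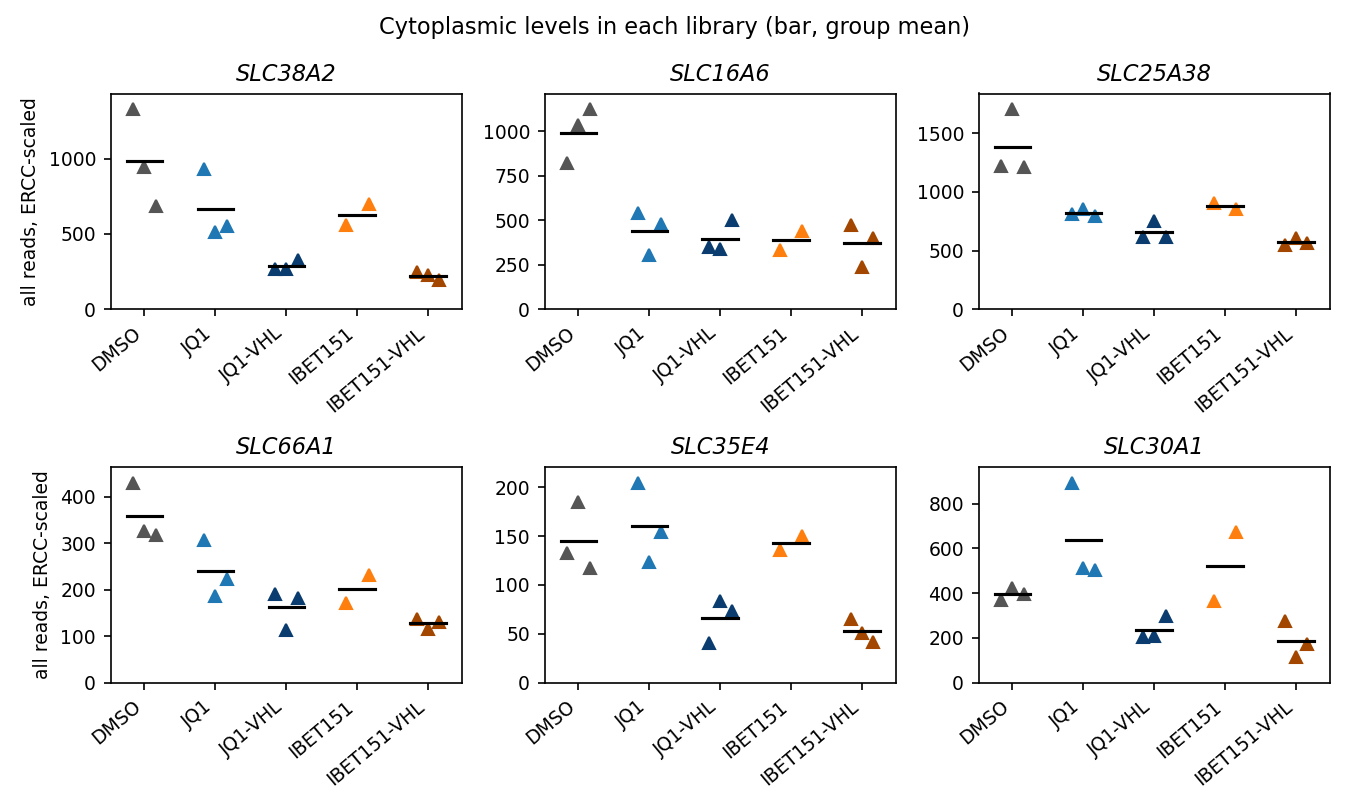
Cytoplasmic level (ERCC-scaled units, linear axis from 0) of SLC38A2, SLC16A6, SLC25A38, SLC66A1, SLC35E4 and SLC30A1 by treatment, with 1 point per library and a bar at each group's mean. SLC38A2, SLC66A1 and SLC35E4 are lowest in both VHL groups, SLC16A6 is below DMSO in all 4 treatments, and SLC30A1 is highest in JQ1.

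Compared with their parents in the cytoplasm, JQ1-VHL lowered 4 of 194 members (4.18% of all genes fell) and IBET151-VHL 7 (7.87%). SLC38A2, SLC35E4 and SLC30A1 fell in both comparisons. These have no library in common but come from the same fit, with a shared estimate of spread. Same-numbered JQ1-VHL and IBET151-VHL libraries also deviated together (lowest correlation 0.267), so the comparisons are not independent. The share of all genes that fell in both is not given here. Also below IBET151 were SLC19A2, the thiamine carrier, at -2.46, SLC25A25, an ATP-magnesium carrier, at -1.59 and SLC45A4 at -1.14. SLC19A2 was near the lowest levels, with 38.0 and 79.3 with IBET151 and 6.73, 6.92 and 16.1 with IBET151-VHL. Left-out libraries ended the call of SLC19A2 in 3 cases (limma adjusted p of 0.0534 to 0.257), that of SLC45A4 in 3 (0.0515 to 0.306) and that of SLC25A25 in 1, without IBET151 replicate 1 (0.0616). Against DMSO, SLC35C1, which carries GDP-fucose, fell by 1.00 and 1.17 on the log2 scale after JQ1-VHL and IBET151-VHL. SLC52A3, a riboflavin carrier, fell by 1.35 after JQ1-VHL. After IBET151-VHL, SLC10A7 fell by 1.04, SLC25A25 by 0.88, SLC45A3 by 0.59, SLC25A36 by 0.59 and SLC2A10 by 0.54. After JQ1, SLC16A14 fell by 1.04, SLC45A3 by 0.80 and SLC2A10 by 0.68. These JQ1 calls were lost in 7, 5 and 6 of 17 alternatives (limma adjusted p of 0.0548 to 0.123, 0.0741 to 0.196 and 0.0517 to 0.239). The call of SLC52A3 was lost in 12 (0.0507 to 0.247) and that of SLC35C1 in 1, without JQ1-VHL replicate 1 (0.0618). After IBET151-VHL the calls of SLC45A3, SLC25A36, SLC2A10 and SLC25A25 were lost in 10, 8, 8 and 5 (0.0512 to 0.216), and those of SLC10A7 and SLC35C1 in 0.

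Many abundant carriers did not pass in the cytoplasm. After IBET151-VHL the log2 change of SLC3A2 was -0.58 (95% interval -1.38 to 0.23), that of SLC1A5 -0.36 (-1.10 to 0.37), that of SLC2A1 -0.12 (-1.08 to 0.83) and that of SLC25A3 0.28 (-0.12 to 0.68). The intervals of SLC3A2, SLC1A5 and SLC2A1 reach to falls of more than 1 on the log2 scale. Blocking on the runs of library numbers, SLC3A2 and SLC1A5 passed as lower after IBET151-VHL (-0.78 and -0.55, limma adjusted p = 0.00522 and 0.00665) and after JQ1-VHL (-0.82 and -0.54, 0.00453 and 0.00799). Under median-ratio scaling SLC25A3 passed as higher, by 0.50 after each VHL compound (limma adjusted p = 0.00974 for IBET151-VHL and 0.014 for JQ1-VHL). Among partners of carriers and nutrient sensors, 5 of 20 fell after JQ1-VHL and 0 rose, where 12.5% of all genes tested fell. Among the 5 were the amino acid stress genes CHAC1 (-2.99, limma adjusted p = 3.2e-06) and TRIB3 (-1.13, 0.000472). After IBET151-VHL CHAC1 changed by -3.29 and TRIB3 by -1.24. Of pumps and ABC transporters, endoplasmic reticulum genes and ribosomal proteins, 0 passed after JQ1-VHL, beside the same 12.5% of all genes. Of mitochondrial import genes TIMM10B (-1.05) and TIMM22 (-0.63) fell.

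The counts moved with single libraries, as did those of all genes. For JQ1, calls over all genes went from 601 to 273 without JQ1 replicate 2. For JQ1-VHL they went from 1608 to 906 without JQ1-VHL replicate 1 and to 2083 without DMSO replicate 3. The counts of members that follow are read beside this. For JQ1 the count of 5 became 0 without JQ1 replicate 2, 1 without JQ1 replicate 3, 2 without replicate 1 of DMSO or JQ1 and 3 (2 higher, 1 lower) without DMSO replicate 2, and it was 9 (1 higher, 8 lower) with replicate number as a block. For JQ1-VHL the 10 became 4 without JQ1-VHL replicate 1 and 17 without DMSO replicate 3. For IBET151 the 1 became 0 without either IBET151 library and 2, both higher, without DMSO replicate 2. For IBET151-VHL the 14 became 9 without IBET151-VHL replicate 2. Against the parents, the 4 of JQ1-VHL became 1 without replicate 1 of JQ1 or JQ1-VHL and 2 without JQ1-VHL replicate 2, and the 7 of IBET151-VHL became 2 without IBET151 replicate 2 and 4 without IBET151-VHL replicate 2 or 3. Median-ratio scaling gave 1 higher and 4 lower for JQ1, 2 and 6 for JQ1-VHL, 1 and 3 for IBET151 and 5 and 9 for IBET151-VHL.

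In the nuclear fraction the members' values against DMSO are descriptions, since DMSO nuclear values chose the members. The median log2 difference was -0.36 for JQ1, -0.49 for JQ1-VHL, 0.18 for IBET151 and -0.62 for IBET151-VHL, beside -0.42, -0.53, 0.05 and -0.76 for all genes at the same level. None of the IBET151 libraries belongs to the first run, and without the libraries of that run the members' medians were -0.25, -0.37, -0.21 and -0.51, beside -0.31, -0.39, -0.36 and -0.63. The direction for IBET151 thus turned with those libraries. SLC38A2 was at 8424, 14938 and 14271 in DMSO, 2067, 5939 and 5007 with JQ1-VHL and 1727, 4173 and 3757 with IBET151-VHL. Replicate 1 was the lowest of each of these groups, and no VHL library reached a DMSO library. SLC16A6 was at 3989.9, 7442 and 11063 in DMSO and 1004, 2554 and 4263 with JQ1, where the highest JQ1 library lay above the lowest DMSO one.

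VHL forms and parents were compared in the nucleus with tests, since the DMSO libraries do not enter that difference. Of 195 members, 0 passed for JQ1-VHL against JQ1 (0.166% of all genes were lower) and 0 for IBET151-VHL against IBET151 (0.506%) by limma, edgeR or DESeq2. At an unadjusted p under 0.05 limma had 3 and 10. With replicate number as a block, 11 members passed for the JQ1 pair, 1 higher and 10 lower. Under median-ratio scaling, 9 and 11 passed for the 2 pairs, the 9 all lower and the 11 split into 3 higher and 8 lower. Blocking on the runs of library numbers, 17 passed for the JQ1 pair, 1 higher and 16 lower, and 34 for the IBET151 pair, 1 higher and 33 lower. Without the first run, 2 and 8 passed, all lower. The members' medians were then -0.05 and -0.21, in place of -0.08 and -0.70 with all libraries. The shares of all genes under these alternatives are not given here, so the counts are not a result about the members. SLC30A1 differed by -1.34 and -1.86, and without the first run by -1.38 and -1.37, where it passed in both pairs. Whether the VHL effect differed between nucleus and cytoplasm was tested over both pairs, and 0 members passed (0.0% of all genes, by limma, with 2 members at an unadjusted p under 0.05, and 0 by edgeR and DESeq2).

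T>C reads, which stand for RNA made during the labelling, gave 194 members in the table of 13029 genes. All 28 libraries came from labelled cells, so how many T>C reads arise without the label is not known here. They were 2.25% to 8.02% of all reads in the DMSO nuclear and 0.747% to 0.818% in the DMSO cytoplasmic libraries, and 0.235% to 0.302% in the VHL cytoplasmic ones. The 2.25% was that of DMSO nuclear replicate 3. It lay inside the JQ1-VHL nuclear range of 1.92% to 2.41%, so these ranges overlap and the nuclear group medians below hide this. The share of a gene's reads with T>C conversions is given as a description. For members it had a median of 4.99% in the DMSO nuclear and 0.583% in the DMSO cytoplasmic libraries, beside 7.03% and 0.684% for all genes at the same level. SLC25 carriers had 6.23% in the nucleus and the other carriers 4.83%. After IBET151-VHL the members' medians were 0.461% and 0.0114%, after JQ1-VHL 1.11% and 0.0425%, after JQ1 3.82% and 0.264%, and after IBET151 3.49% and 0.229%. Without the first run of library numbers the nuclear medians were 4.05% in DMSO, 3.01% with JQ1, 1.23% with JQ1-VHL and 0.375% with IBET151-VHL.

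**Figure D5:**
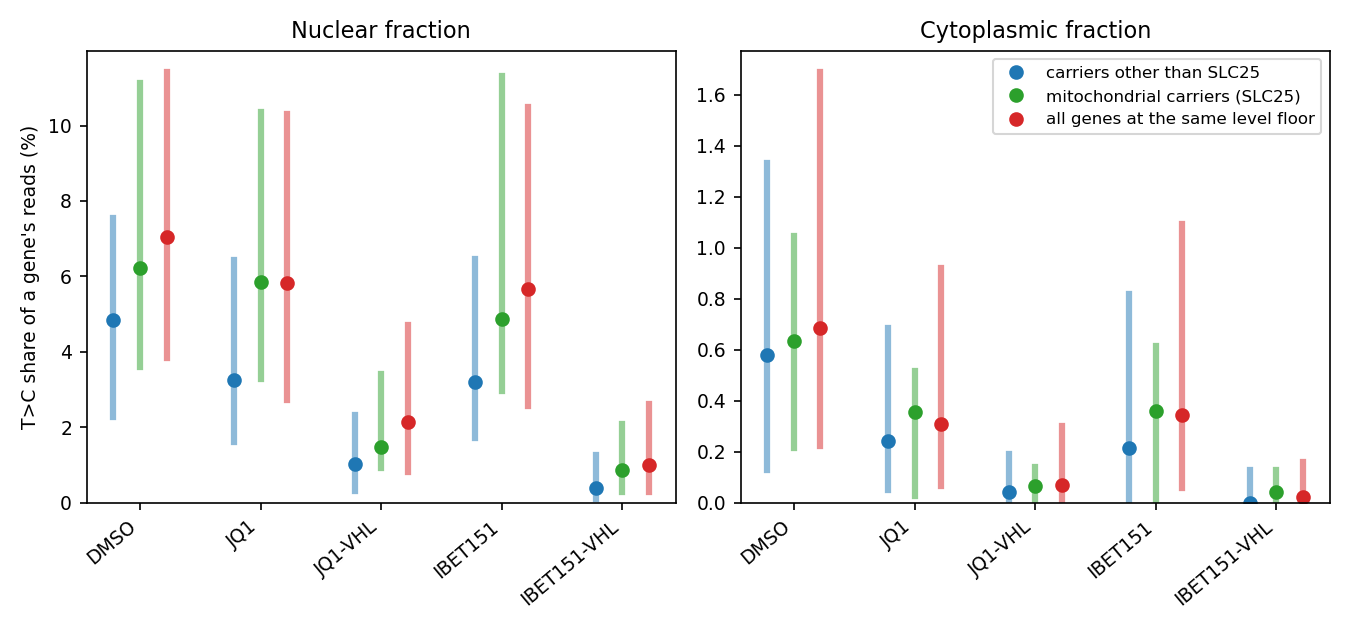
Median share of reads with T>C conversions (%) by treatment in the nuclear and the cytoplasmic fraction for SLC25 carriers, the other carriers and all genes at the same level, with bars from the lower to the upper quartile over genes. The median share is lowest after both VHL compounds in each fraction. The spread between libraries of a group is not shown.

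Among the 102 members with a cytoplasmic DMSO level of 500 or more, 5 had the highest shares in the DMSO cytoplasm. SLC1A5 had 9.20% ± 0.28, SLC38A2 5.83% ± 0.64, SLC16A6 5.0% ± 1.18, SLC40A1 3.55% ± 0.21 and SLC3A2 2.96% ± 1.19 (SD, n = 3). The lowest shares were 0 for SLC25A39, 0.00977% for the dicarboxylate carrier SLC25A10, 0.0124% for SLC2A4RG, 0.0199% for SLC9A3R2 and 0.0226% for the creatine carrier SLC6A8. The share of the glutamine carrier SLC1A5 ranged from 5.96% to 10.6% over all 28 libraries. It was 9.37, 8.88 and 9.35% in DMSO, 8.93, 7.24 and 8.68% with JQ1-VHL and 7.98, 7.81 and 8.31% with IBET151-VHL in the cytoplasm. In the nucleus it was 9.16, 8.64 and 5.96%, 8.72, 7.41 and 7.61% and 7.99, 7.55 and 8.57%, where the DMSO and VHL ranges overlapped. The lowest share of all was that of nuclear DMSO replicate 3. In the cytoplasm the members' median share went from 0.583% in DMSO to 0.0114% with IBET151-VHL. How much of the SLC1A5 share arises from the label was not tested. SLC1A5 therefore cannot be called the member with the most new RNA.

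SLC16A6 showed the other pattern. Its cytoplasmic T>C level was 48.3, 38.0 and 61.1 in DMSO, 6.81, 5.56 and 11.6 with JQ1, 0, 0.906 and 6.68 with JQ1-VHL, 5.71 and 6.38 with IBET151 and 2.02, 0 and 2.39 with IBET151-VHL. All treated libraries lay far below DMSO, the VHL libraries at a few reads or 0. The log2 changes, on the log2(value + 1) scale, were -2.51, -4.33, -2.81 and -4.50 after JQ1 and its VHL form and after IBET151 and its VHL form (limma adjusted p = 0.00873, 2.66e-06, 0.0161 and 5.9e-07). SLC38A2 had cytoplasmic T>C levels of 68.4, 60.8 and 40.4 in DMSO, 7.38, 1.81 and 13.4 with JQ1-VHL and 0.673, 0.864 and 5.97 with IBET151-VHL, and changed by -3.01 and -4.33 (limma adjusted p = 4.52e-05 and 1.63e-07).

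Across members, cytoplasmic T>C levels fell with those of all genes. Of the 194 members in the table, 81 passed the filter on low values, some of them through their DMSO levels, so their counts are a description. After JQ1-VHL 65 of 81 members tested fell (82.8% of all genes), after IBET151-VHL 65 (88.3%), after JQ1 14 (20.1%) and after IBET151 9 (6.76%), and 0 rose, by limma at an adjusted p under 0.05. The medians were -2.31, -2.61, -0.74 and -0.60, beside -2.42, -2.89, -0.97 and -0.60 for all genes. The largest falls were those of the iron exporter SLC40A1 (-3.76 after JQ1-VHL and -5.12 after IBET151-VHL), SLC10A3 (-3.31 and -4.93) and the ADP/ATP carrier SLC25A6 (-3.79 and -3.92), besides SLC16A6 and SLC38A2. SLC25A6 also fell by 1.24 after JQ1 and SLC35F2 by 3.48 after IBET151. SLC1A5 (-0.52 and -0.56 after JQ1-VHL and IBET151-VHL) and the citrate carrier SLC25A1 (-0.01 and 0.20) did not pass. Under median-ratio scaling the median of all genes moved to -0.86 for JQ1-VHL, -1.23 for IBET151-VHL, -0.34 for JQ1 and -0.31 for IBET151, with 2 members higher and 14 lower, 6 and 28, 0 and 1, and 0 and 1. Without replicate 2 of DMSO or replicate 3 of JQ1 the 14 for JQ1 became 8, and for IBET151 the 9 became 4 or 5 without any 1 of the libraries compared.

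In the nucleus, T>C levels fell in the VHL forms against their parents. A member could pass the filter on low values through the DMSO or parent libraries alone, so the counts and p-values below are a description. For IBET151-VHL against IBET151, 177 of 193 members were lower (91.7%, against 81.4% of all genes and 88.4% of those at the level of 100), with a median of -3.48 beside -3.01 and -3.14. For JQ1-VHL against JQ1, 54 of 193 were lower (against 13.0% of all genes and 14.1% of those at that level), with a median of -1.67 beside -1.17 and -1.23, and 0 members rose in either comparison. The lactate carrier SLC16A1 was at 54.9, 119 and 49.7 with JQ1, 2.01, 0 and 2.22 with JQ1-VHL, 107 and 71.7 with IBET151 and 6.21, 0 and 0 with IBET151-VHL. The VHL libraries held a few reads or 0, and the log2 differences were -5.03 and -5.52 (limma adjusted p = 3.87e-05 for the first). The nucleoside carrier SLC29A1 was at 52.4 and 111 with IBET151 and 0 in all 3 IBET151-VHL libraries. The other largest differences were SLC66A3 (-3.77), SLC8B1 (-3.54) and SLC2A8 (-3.44) for JQ1, and the choline carrier SLC44A2 (-5.93), SLC22A17 (-5.90) and the lysosomal amino acid carrier SLC36A1 (-5.53) for IBET151. The 54 of the JQ1 pair became 2 without JQ1 replicate 2, 14 without JQ1-VHL replicate 1, 31 without JQ1 replicate 3, 12 with only the groups compared and 1 without the first run of library numbers, where the IBET151 pair had 166 of 192 members lower. T>C reads were 1.94% of all reads in JQ1 nuclear replicate 3, against 6.67% and 5.69% in the other JQ1 libraries and 1.92% to 2.41% with JQ1-VHL, so the ranges overlap. The part of this in the count was not tested. Under median-ratio scaling 0 members were higher and 9 lower for the JQ1 pair and 2 higher and 33 lower for the IBET151 pair, with medians of -0.65 and -1.05 beside -0.13 and -0.40 for all genes.

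Between fractions, the T>C levels of 188 of 190 members were higher in the nucleus over the drug-treated libraries (99.1% of all genes) and 0 lower, with a median log2 difference of 3.68 beside 3.41. Of these members 190 passed the filter on low values, against 81 among the cytoplasmic libraries, so most passed through the nuclear libraries and their count is a description. The largest differences were those of SLC25A29 (6.10), SLC3A2 (6.01), the amino acid exchanger SLC7A6 (5.97), SLC35B1 (5.86) and SLC2A4RG (5.82). SLC12A3 (0.41, limma adjusted p = 0.233) and the proton exchanger SLC9A7 (0.68, limma adjusted p = 0.0542) did not pass. Under median-ratio scaling the medians were 1.35 for members and 0.95 for all genes.

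Members with a larger share of T>C reads in the DMSO cytoplasm tended to have lower log2 changes against DMSO after the VHL compounds. Over 165 members, Pearson's r was -0.38 and Spearman's rho -0.33 for JQ1-VHL, and -0.43 and -0.34 for IBET151-VHL. For JQ1 and IBET151, r was 0.02 and 0.05. These are descriptions across genes, which are not independent, and both axes share the DMSO libraries. They include SLC1A5, whose high share hardly moved with treatment.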

How the data were processed

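RNA from MDA-MB-453 cells labelled with 4-thiouridine was read as mRNA 3′ ends in 28 libraries, and groups were taken from the sample titles. Per the submitters' processing notes, bcl2fastq, Trimmomatic 0.39, HISAT2, HTSeq and DESeq2 were used, with GRCh37, hg19 and dm3 named as builds; how T>C reads were told apart, and whether strand was used in counting, is not given in the sources used here. The deposited values are a signal per gene, reads scaled by the authors to ERCC spike-ins per the labels' protocols and the column values, in a table of all reads and a table of T>C reads. Each library's values were whole multiples of a single step (100% within 0.001 of a whole read), worth 0.670 to 2.24 in nuclear and 0.374 to 0.951 in cytoplasmic libraries, so that reads could be recovered.

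Tests used limma 3.58.1 in R 4.3.3 (limma-trend) on log2(value + 1), which understates the changes of low genes, for genes at 10 or more (5 or more for T>C reads) in 2 or more libraries, with Benjamini-Hochberg adjustment over all genes of a fit and a threshold of 0.05. The 14 cytoplasmic libraries, the 14 nuclear libraries and the 22 drug-treated libraries of both fractions were fitted separately. edgeR 4.0.16 and DESeq2 1.42.0 on recovered reads, another pseudocount, filter and scaling, blocks and left-out libraries were alternatives. Tests were checked on simulated data. Genes named are those fixed by role, those past the threshold in the cytoplasm, and the extremes of each comparison. Values of a few genes that this rule names are not reported here, though counts include them. The members and lists were chosen with earlier results of these data known. In levels of all reads, same-numbered libraries of DMSO, JQ1, JQ1-VHL and IBET151-VHL deviated together within a fraction, by replicate numbers from the titles. The lowest correlation was 0.203 in the cytoplasm and 0.159 in the nucleus, whereas pairs with IBET151 did not deviate together (lowest -0.533). In T>C levels the lowest correlation among the same groups without IBET151 was 0.0147 in the cytoplasm and -0.00765 in the nucleus. Sequences are from RefSeq on GRCh38.p14, matched by symbol for 160 members, and were not used with the files' build.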

Additional observations from a re-analysis of the deposited data

How the results depend on the processing

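Counts of members called moved by more than 1.5 times in several settings. Counts over all 12470 genes tested in the cytoplasm moved as well. With runs of library numbers as a block they went from 601 to 1606 for JQ1 and from 1608 to 3336 for JQ1-VHL. The counts of members below thus describe the settings and are not a result about the members. Blocking on the runs of library numbers gave 18 for JQ1, 39 for JQ1-VHL, 10 for IBET151 and 45 for IBET151-VHL against DMSO in the cytoplasm, 8 and 12 for the VHL forms against JQ1 and IBET151, and 17 and 34 for these pairs in the nucleus. With only the groups compared in the fit they were 0, 6, 2 and 9 against DMSO and 8 for the JQ1 pair. DESeq2 gave 8 for JQ1, 16 for JQ1-VHL and 5 for IBET151. The replicate block gave 9 for JQ1, 5 for IBET151, 11 for the nuclear JQ1 pair and 143 for the nuclear IBET151 pair, whose numbers do not pair the libraries. Median-ratio scaling gave 4 for IBET151, 9 and 11 for the nuclear pairs and 1 for the difference between fractions in the VHL effect. Median-ratio scaling with the block, an alternative added after seeing the data, gave 10, 16 and 23 for JQ1, IBET151 and IBET151-VHL, 23 and 23 for the nuclear pairs and 1 for that difference. Leaving out a library in turn gave 0 to 7 for JQ1, 4 to 17 for JQ1-VHL, 0 to 2 for IBET151, 9 to 20 for IBET151-VHL, 1 to 5 and 2 to 6 for the cytoplasmic pairs, 0 for the nuclear pairs and the difference between fractions, and 162 to 169 for nucleus against cytoplasm. A group left with a lone IBET151 library was assumed to vary like the others. Leaving out the first run of library numbers, also added after seeing the data, gave 2 and 8 for the nuclear pairs.

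For T>C levels in the cytoplasm, the counts for JQ1 were 27 with a pseudocount of 5, 2 with a filter at 5 times the minimum, 6 with edgeR, 7 with DESeq2 and 1 with median-ratio scaling, with or without the block, and 8 to 15 without single libraries. For IBET151 they were 4 and 18 with pseudocounts of 0.5 and 5, 1 with the stricter filter, edgeR, DESeq2 or median-ratio scaling, 0 with the block added to that scaling, and 4 to 5 without single libraries. For JQ1-VHL and IBET151-VHL they were 14 and 14 with the stricter filter, 16 and 34 with median-ratio scaling, 16 and 37 with the block added, and 51 to 64 and 51 to 62 without single libraries. In the nucleus the JQ1 pair gave 9 with median-ratio scaling, 15 with the block added, 88 with the replicate block, 149 with the run block, 12 with only the groups compared, 1 without the first run and 2 to 77 without single libraries. The IBET151 pair gave 35, 36 and 153 to 175 for median-ratio scaling, the block added and left-out libraries, and nucleus against cytoplasm 185 to 189 for left-out libraries.

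Median-ratio scaling, with the same values when the block was added unless given, reversed SLC25A3 between fractions (-0.72). T>C levels reversed for SLC1A5 (1.70), SLC25A1 (2.02), SLC25A3 (0.97) and SLC25A5 (0.34) after JQ1-VHL, and for SLC1A5 (2.43) and SLC25A3 (1.21) after IBET151-VHL. They reversed between fractions for SLC1A5 (-0.26), SLC25A1 (-1.75), SLC25A3 (-0.32), SLC25A5 (-1.19) and SLC25A6 (-1.57). In the nuclear IBET151 pair they reversed for SLC1A5 (2.17, with the block 1.91), SLC20A1 (0.48, 0.40), SLC25A3 (1.04, 1.03), SLC25A5 (1.10, 0.80) and SLC38A2 (0.016, without the block alone), as did the total level of SLC38A1 (0.51, with the block alone). Of the other values of single genes, 6763 kept direction and call, 294 lost the call and 108 gained it; the cause was not tested. The medians between fractions moved little at a floor of 500. Depth limits the T>C levels in the cytoplasm, where many members had a few reads or 0.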
